A study of Saccharomyces cerevisiae BY4741 with 6 samples.

Results

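Transcripts of 5 genes of carnitine metabolism were followed in budding yeast with and without peroxisomes. They were the carnitine acetyltransferase genes CAT2 (YML042W), YAT1 (YAR035W) and YAT2 (YER024W), the mitochondrial carnitine carrier gene CRC1 (YOR100C) and the plasma membrane carnitine transporter gene AGP2 (YBR132C). The genes were picked by identifier from the 5631 rows of the deposited count table, and all 5 members were present and passed the filter on low counts. Poly(A) RNA was sequenced from 3 cultures of the wild-type strain Saccharomyces cerevisiae BY4741 and from 3 cultures of a deletion strain of the same background. Both strains were MATa and carried his3[delta]1 and leu2[delta]0, and in addition met15[delta]0 as well as ura3[delta]0. The deletion strain differed by pex3(YDR329c)::kanMX4, a replacement of PEX3 with a drug resistance cassette, and each strain was a single Euroscarf stock. Cultures were grown overnight on mineral medium with 0.5% glucose, passed through dilutions into medium with 0.5% acetate, and harvested at an optical density of 0.5 in shake flasks at 30 degrees Celsius, per the labels' protocols. The study asked whether the loss of functional peroxisomes changes the transcriptome on acetate, a carbon source that relieves repression of genes for peroxisomal proteins.

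Acetyl-CoA does not cross organelle membranes freely, and yeast moves acetyl units between compartments by a pair of routes. In the carnitine shuttle, a carnitine acetyltransferase passes the acetyl group from coenzyme A to carnitine, acetylcarnitine leaves the organelle, and an acetyltransferase at or in the mitochondrion returns the acetyl group to coenzyme A. In the other route the peroxisomal citrate synthase Cit2 and the glyoxylate cycle turn acetyl-CoA into organic acids that can leave. Cat2 is found in peroxisomes and in mitochondria, Yat1 is associated with the outer mitochondrial membrane, and Yat2 is a further acetyltransferase needed for growth on non-fermentable carbon when the route through Cit2 is absent. Crc1 carries carnitine and acetylcarnitine across the inner mitochondrial membrane. S. cerevisiae does not make carnitine and takes it up through Agp2, a member of the amino acid permease family that also acts in polyamine uptake. Whether the medium held carnitine is not given in the sources used here.

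Both ends of the CAT2 coding sequence are shown because they hold the signals that send its product to different organelles. CAT2 lies on chromosome XIII at positions 192788 to 194800 on the plus strand (build R64). The first 81 bases, from 192788 to 192868, have the first start codon and the next in-frame start codon, which begins at base 67 counted from the first base of the coding sequence, in capitals. In the last 30 bases, from 194771 to 194800, the 3 codons before the stop codon are in capitals and encode the peroxisomal targeting tripeptide. Both sequences are from the RefSeq R64 genome.
CAT2 first 81 bases: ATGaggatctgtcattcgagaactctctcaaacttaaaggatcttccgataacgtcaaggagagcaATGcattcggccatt
CAT2 last 30 bases: aatgagaataaacgaaaaGCAAAGTTAtga
The longer product, begun at the first start codon, has the mitochondrial signal, and a shorter transcript begun downstream of it gives the peroxisomal form. Counts per gene add both transcripts together, so no value given here separates the peroxisomal from the mitochondrial form.

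The 300 bases before the start codon are shown for the acetyltransferase genes, because their transcripts are compared with each other between cultures and, further on, with those of oleate-responsive genes. Capitals mark, on either strand, TTGGNG, the core bound by the regulator Adr1, and CGGNNNTNA, one arm of the element bound by the oleate regulators Oaf1 and Pip2. The sequences are from RefSeq R64, for CAT2 at chrXIII:192488-192787 (plus strand), YAT1 at chrI:189893-190192 (plus strand) and YAT2 at chrV:201892-202191 (plus strand).
CAT2: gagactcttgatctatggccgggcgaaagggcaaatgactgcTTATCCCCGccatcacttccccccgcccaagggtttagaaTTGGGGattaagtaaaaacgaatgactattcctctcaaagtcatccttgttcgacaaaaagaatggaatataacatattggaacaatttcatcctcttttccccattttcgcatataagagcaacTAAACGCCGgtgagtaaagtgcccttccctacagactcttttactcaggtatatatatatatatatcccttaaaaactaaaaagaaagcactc
YAT1: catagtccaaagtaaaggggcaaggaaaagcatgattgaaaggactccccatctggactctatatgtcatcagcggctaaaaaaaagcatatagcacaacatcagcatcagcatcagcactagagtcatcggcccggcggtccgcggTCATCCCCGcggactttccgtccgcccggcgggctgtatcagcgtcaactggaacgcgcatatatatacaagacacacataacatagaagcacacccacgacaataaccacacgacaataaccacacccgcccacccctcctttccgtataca
YAT2: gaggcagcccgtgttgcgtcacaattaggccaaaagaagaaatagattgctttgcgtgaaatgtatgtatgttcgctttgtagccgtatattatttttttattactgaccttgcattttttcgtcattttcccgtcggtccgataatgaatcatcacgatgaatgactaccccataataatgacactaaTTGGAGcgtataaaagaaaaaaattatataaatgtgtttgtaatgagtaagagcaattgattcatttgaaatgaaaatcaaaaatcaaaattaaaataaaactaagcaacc
TTGGNG was found before CAT2 and YAT2, as in 32.7% of 6020 upstream windows of this length. CGGNNNTNA was found before CAT2 at 2 places and before YAT1 at 1, as in 22.7% of the windows. The windows of CRC1 and AGP2 held neither motif. The full consensus of the carbon source response element, bound by Cat8 and Sip4, was in none of the 5 windows and in 0.233% of all windows. No matches of the different motifs overlapped in these windows. The motifs were chosen with results of these data known, and a match is a description of the letters only.

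The libraries held from 6782522 to 9410398 counts, and the TMM factors that adjust library size for composition lay between 0.991 and 1.01. Wild-type replicate 1 stood apart on the first principal component of log2 CPM, at -20.49 where the others lay between -1.56 and 12.25, with deletion replicate 1 at the other end. Across genes, deviation of a library from the mean followed gene length with a Spearman correlation of 0.324 in wild-type replicate 1 and -0.381 in wild-type replicate 3. PEX3 itself was not analysed here, so the genotype rests on the labels. The MATa-specific genes STE2 and BAR1 averaged 268 and 116 CPM (counts divided by library size and TMM factor) without the deletion and 246 and 96.6 CPM with it, while the alpha-specific genes STE3 and MF(ALPHA)1 stayed at or under 29.6 CPM in both strain means. CPM values are relative to the RNA of a library, so the amount of transcript per cell was not measured. Labels name the cultures biological replicates.

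Carnitine acetyltransferase transcripts were abundant on acetate. Per kilobase of coding length, a scale on which genes can be compared, YAT1 was highest with a mean over the 6 libraries of 586 CPM per kb, followed by YAT2 with 503, CAT2 with 415, CRC1 with 276 and AGP2 with 141 CPM per kb. Among 5519 genes with an annotated length, YAT1 ranked 250, YAT2 289, CAT2 352, CRC1 534 and AGP2 1120. YAT1 exceeded YAT2 in 5 of 6 libraries and YAT2 exceeded CAT2 in 6 of 6, but the ranges of these neighbours over libraries overlapped. The ranges of CAT2 and CRC1 did not overlap, since CAT2 had its lowest level at 329 CPM per kb and CRC1 its highest at 305. CRC1 in turn was at least 229 CPM per kb, and AGP2 was at most 165.

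**Figure D1:**
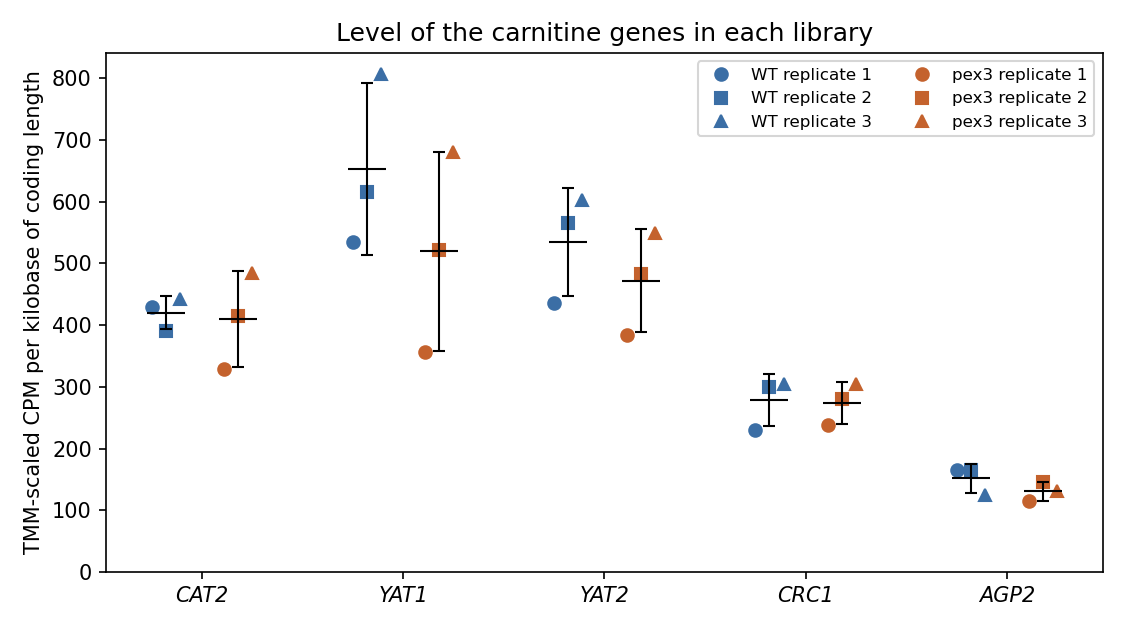
Level of each carnitine gene in TMM-scaled CPM per kilobase of coding length, with 1 point per library (blue, wild type; orange, pex3 deletion strain; marker shape, replicate number) and black bars for mean and SD of 3 libraries. The strains overlap for all 5 genes, and the deletion replicate 1 circle is the lowest point for CAT2, YAT1, YAT2 and AGP2.

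None of the 5 genes passed the edgeR quasi-likelihood test between strains at an adjusted p of 0.05 over all genes, where 0.178% of 5628 tested genes passed, that is 0.142% higher and 0.0355% lower. With DESeq2 and with limma voom the count was also 0 of 5. Over all genes, DESeq2 called 26 higher and 32 lower, and limma voom 8 and 2. At an unadjusted p under 0.05 the count of members was 0 of 5 in edgeR, against 9.08% of tested genes. With the replicate number as a block in the model it was 2 of 5 (YAT1 and YAT2), against 7.13%, and 0 of 5 passed after adjustment. Wild-type and deletion libraries were fully apart for 0 of 5, against 16.5%. The fitted log2 fold changes, deletion strain against wild type, were all 5 below 0, with a median of -0.18 where the median of all tested genes was 0.01. The lowest count of a member in a library was 1668, at which counting error alone is 2.45% of the count. The within-strain SD was 0.20 or more in every member, in log2 units and so not on the scale of that percentage.

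CAT2, the acetyltransferase gene whose product is normally found in part in peroxisomes, was measured at 864, 785 and 890 CPM in wild-type replicates 1, 2 and 3. In the deletion strain it was at 661, 836 and 974 CPM. The deletion libraries thus held both the lowest and the highest CAT2 value, with the wild-type libraries between them. CAT2 averaged 846 ± 54.6 CPM without the deletion and 824 ± 157 CPM with it (SD, n = 3 each). The log2 fold change was -0.04 (standard error, SE, 0.14, edgeR adjusted p 0.945), and its 95% interval ran from -0.35 to 0.28, or from 0.782-fold to 1.21-fold. Without deletion replicate 1 the log2 fold change was 0.10.

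YAT1, whose product sits at the outer mitochondrial membrane, varied most among the carnitine genes. It was at 1105, 1271 and 1665 CPM in the wild-type libraries. In the deletion libraries it was at 737, 1076 and 1404 CPM. Deletion replicate 1 was the lowest of all and wild-type replicate 3 the highest, with the other libraries interleaved. The means were 1347 ± 287 and 1072 ± 334 CPM (SD, n = 3 each), and the log2 fold change was -0.33 (SE 0.24, edgeR adjusted p 0.658) with a 95% interval from -0.87 to 0.22. Within a strain, the highest library exceeded the lowest 1.51-fold in the wild type and 1.91-fold in the deletion strain, while the fitted fold between strains was 0.796. In both strains the level increased from replicate 1 to replicate 3. With the replicate number as a block, the log2 fold change was -0.36 (SE 0.09, edgeR adjusted p 0.654). Whether same-numbered cultures shared conditions was not tested, and the share of all genes in this order was not counted. The within-strain SD of log2 CPM, 0.39, was larger than that of 93.7% of tested genes, whose median was 0.13. The fitted value was -0.12 without deletion replicate 1 and -0.57 without deletion replicate 3, the latter with an unadjusted edgeR p of 0.0349. The edgeR adjusted p was at least 0.445 in all 6 fits that left out 1 library.

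YAT2 was at 1207, 1567 and 1671 CPM in the wild-type libraries. The deletion libraries held 1065, 1341 and 1522 CPM, so the lowest value was again in deletion replicate 1 and the highest in wild-type replicate 3. Means of 1482 ± 243 and 1309 ± 230 CPM (SD, n = 3 each) corresponded to a 95% interval from -0.55 to 0.19 around a fitted log2 difference of -0.18 (edgeR adjusted p 0.722, SE 0.16). The within-strain SD of 0.26 on the log2 scale exceeded that of 83.9% of tested genes. Here too the level increased from replicate 1 to replicate 3 in both strains. With the replicate number as a block, the fitted value stayed at -0.18 (SE 0.06, edgeR adjusted p 0.654). Leaving out 1 library moved the fitted value to -0.05 without deletion replicate 1, -0.08 without wild-type replicate 3, -0.31 without wild-type replicate 1 and -0.30 without deletion replicate 3, and YAT2 passed in none of these fits.

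The carriers were less abundant. CRC1, the route for acetylcarnitine into the mitochondrial matrix, was at 226, 295 and 300.2 CPM in the wild-type libraries and at 234, 276 and 299.5 CPM in those of the deletion strain. These ranges nearly coincide, and wild-type replicate 1 rather than deletion replicate 1 was lowest. The means were 274 ± 41.6 and 269.8 ± 33.4 CPM (SD, n = 3 each), and the 95% interval of the log2 fold change of -0.02 ran from -0.33 to 0.29 (SE 0.14, edgeR adjusted p 0.971). Its sign turned when wild-type replicate 2, wild-type replicate 3 or deletion replicate 1 was left out, with values of 0.03, 0.05 and 0.07.

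AGP2, the gene for carnitine uptake at the plasma membrane, was at 295, 295 and 224 CPM in the wild type. The deletion libraries held 206.5, 260.4 and 235 CPM. Wild-type replicates 1 and 2 lay above all deletion libraries, and wild-type replicate 3 lay among them. The means were 271 ± 41 and 234 ± 26.9 CPM (SD, n = 3 each), and the log2 fold change was -0.21 (SE 0.13, edgeR adjusted p 0.615) with a 95% interval from -0.52 to 0.09. Without wild-type replicate 3 it was -0.33, with an unadjusted p of 0.0207 and an edgeR adjusted p of 0.291. Without deletion replicate 1 it was -0.13.

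Wild-type replicate 1 and deletion replicate 1, the ends of the first principal component, bear on these values in different ways. Leaving out wild-type replicate 1 gave log2 fold changes of -0.02 for CAT2, -0.45 for YAT1, -0.31 for YAT2, -0.14 for CRC1 and -0.15 for AGP2. Leaving out both libraries, a choice made after seeing the data, gave 0.11, -0.25, -0.18, -0.05 and -0.07 in the same order. In neither case did a carnitine gene pass, and the part of these libraries in the strain values was not tested further.

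The balance among the acetyltransferase genes was then described. Their summed level was 1400, 1571 and 1851 CPM per kb in wild-type replicates 1 to 3 and 1069, 1421 and 1713 CPM per kb in the deletion replicates, with means of 1608 ± 228 and 1401 ± 322 (SD, n = 3 each). These ranges overlap. CAT2 made up 30.6%, 24.8% and 23.9% of the sum in wild-type libraries against 30.7%, 29.2% and 28.3% in deletion libraries. YAT1 averaged 40.3 ± 2.83% without the deletion and 36.6 ± 3.17% with it, and YAT2 33.2 ± 2.51% and 34 ± 1.93% (SD, n = 3 each). Wild-type replicate 1 had a CAT2 share among those of the deletion libraries, while the other wild-type libraries were lower. Since these are shares of the chosen genes, no test is given.

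**Figure D2:**
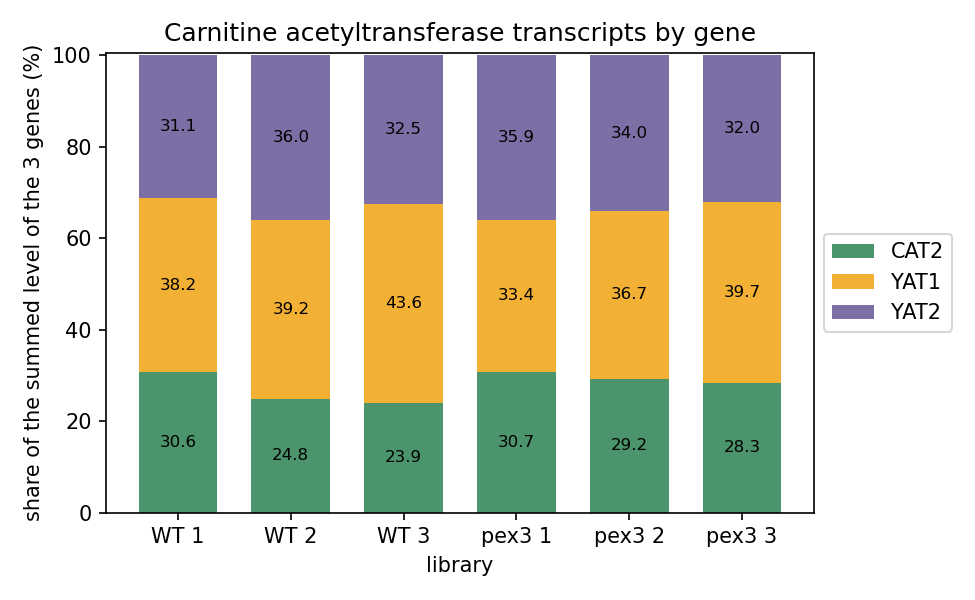
Share of CAT2, YAT1 and YAT2 in their summed level (CPM per kb, percent on the y axis) in each of the 6 libraries on the x axis. YAT1 holds the largest share in every library except deletion replicate 1, where YAT2 does, and CAT2 lies between 23.9% and 30.7%.

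The genes did not vary between cultures as 1 block. Each library was expressed as the deviation of a gene's log2 CPM from its own mean over the 6 libraries, and a pair of genes was compared by the root mean square (RMS) difference of their deviations, among genes with a mean count of at least 50. YAT2 and CRC1 were closest, with an RMS difference of 0.10, where CRC1 had rank 15 of 5350 genes for YAT2 and YAT2 had rank 106 for CRC1. The pairs CAT2 with CRC1, CAT2 with YAT2 and YAT1 with YAT2 all differed by 0.17, but ranks depended on which gene was the reference. YAT2 had rank 9 for YAT1, while YAT1 had rank 381 for YAT2, and CRC1 had rank 1314 for CAT2. YAT1 differed by 0.24 from CAT2 and by 0.26 from CRC1. The differences of AGP2 lay in the same range or above it, from 0.23 for CAT2 to 0.38 for YAT1. The highest deviations of AGP2, both 0.24, were in wild-type replicates 1 and 2, whereas CRC1 was at -0.26 in wild-type replicate 1 and YAT1 at 0.51 in wild-type replicate 3. A common feature of CAT2, YAT1, YAT2 and AGP2 was a lowest value in deletion replicate 1, at -0.33, -0.67, -0.37 and -0.28. That library was an end of the first principal component. The share of all genes lowest in it was not counted, so the feature is not shown to be particular to these genes.

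**Figure D3:**
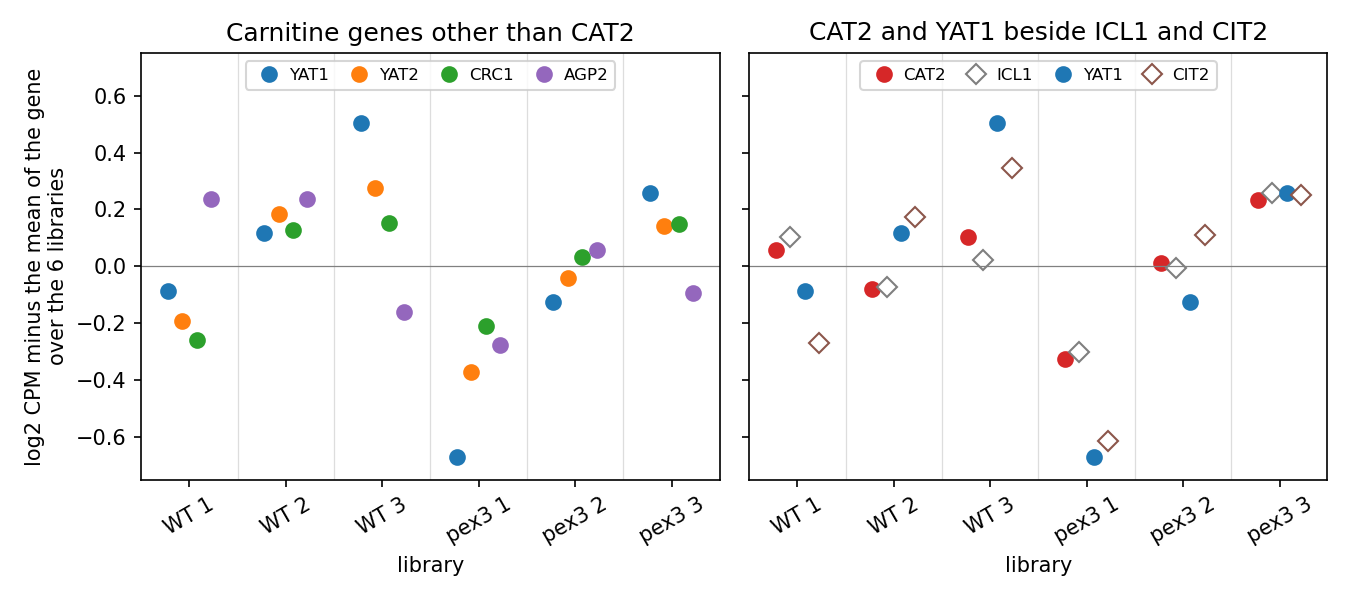
Deviation of log2 CPM from the gene's own mean (y axis) in each library (x axis), for carnitine genes as filled circles and for ICL1 and CIT2 as open diamonds. ICL1 and CIT2 are each only the third nearest gene, to CAT2 and YAT1. The nearer TRP2 and WAR1 (CAT2) and ICY1 and ATG14 (YAT1) are not plotted. CAT2 and ICL1 lie close together in all 6 libraries, and CAT2, ICL1, YAT1 and CIT2 all have their lowest value in deletion replicate 1.

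The 3 genes with the most similar pattern were listed for each carnitine gene. The nearest to CAT2 were TRP2, a tryptophan synthesis gene, WAR1, a regulator of weak acid resistance, and ICL1, the isocitrate lyase gene of the glyoxylate cycle, with RMS differences of 0.02, 0.03 and 0.04 over 6 libraries. ICL1 was at 6956, 6156 and 6578 CPM in wild-type libraries against 5261, 6451 and 7747 CPM in deletion libraries, with its extremes in the same deletion libraries as CAT2. For YAT1 the nearest were ICY1, the autophagy gene ATG14 and CIT2, with 0.11, 0.13 and 0.14. CIT2, which encodes the citrate synthase of peroxisomes, was at 1583, 2151 and 2427 CPM in wild-type libraries against 1248, 2059 and 2270 CPM in deletion libraries. The nearest to YAT2 were MGR1, a gene for a mitochondrial protease complex, and the cell wall genes SED1 and DAN4, from 0.06 to 0.07. CRC1 had ALF1, DPM1 and LGE1 from 0.03 to 0.05, and AGP2 had MPF1, COS5 and MRX4 from 0.05 to 0.06, of which COS5 is one of a family of similar subtelomeric genes and its count is uncertain. These likenesses rest on 6 libraries, of which each carries 1 depth and 1 culture shared by all its genes, and are a description.

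Reads of the carnitine genes could be told from each other and from other genes. Coding sequences of CAT2 and YAT1 were 55% identical over aligned bases, CAT2 and YAT2 61.1%, and YAT1 and YAT2 59.7%, and 0 of the 50-base stretches of any of the 5 genes recurred elsewhere in the R64 genome. No annotated gene overlapped any of the 5. YAT1 lies at chrI:190193-192256 and YAT2 at chrV:202192-204963, both on the plus strand, while CRC1 at chrXV:513295-514278 and AGP2 at chrII:499652-501442 are on the minus strand. Of the 10 adjacent genes, 9 were tested and 0 passed in edgeR, where 0.178% of all tested genes passed. Their log2 fold changes ran from -0.23 for RAS1 to 0.15 for GCD11, with edgeR adjusted p of at least 0.614. PRO3, next to YAT2, averaged 206 CPM without the deletion and 222 CPM with it (log2 fold change 0.10, edgeR adjusted p 0.638). Its libraries did not overlap, as for 16.5% of all tested genes.

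The genes that feed acetyl-CoA to the carnitine shuttle in peroxisomes were compared next. Of 14 genes of peroxisomal beta-oxidation with its transporters and accessory enzymes, 4 rose, 0 fell and 10 did not pass, where 0.142% of all tested genes rose. The median log2 fold change was 0.60, with 13 values above 0 and 1 below. In edgeR, 11 of the 14 had an unadjusted p under 0.05 in either direction, against 9.08% of all tested genes. The acyl-CoA oxidase gene POX1 averaged 103.4 ± 14.6 CPM without the deletion and 270.1 ± 12 CPM with it, and the thiolase gene POT1, whose product releases acetyl-CoA, at 77.3 ± 15.9 and 169 ± 14.1 CPM (SD, n = 3 each). Their log2 fold changes were 1.38 and 1.13 (edgeR adjusted p 0.00431 and 0.027). The other genes that rose were the acyl-CoA synthetase gene FAA2, by 0.95, and the dienoyl-CoA reductase gene SPS19, by 0.66 on the log2 scale (edgeR adjusted p 0.027 and 0.0134). YER014C-A overlaps FAA2 on the opposite strand, and since use of strand in counting is not given in the sources used here, the value of FAA2 is uncertain. The lowest member was PXA1, a subunit gene of the fatty acyl-CoA transporter, at -0.44 (edgeR adjusted p 0.507). The increase of these genes was known before the list was made, so these counts are not independent evidence. The count of listed genes that rose was 1 without wild-type replicate 2, wild-type replicate 3, deletion replicate 2 or deletion replicate 3. It was 2 without deletion replicate 1 and 6 without wild-type replicate 1. On all libraries the count was 8 with DESeq2, where 26 genes were called higher over all genes. With the replicate number as a block it was 0, where 1 gene was called higher over all genes.

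The 95% interval of CAT2, which ended at 0.28, lay wholly below those of the 4 genes that rose, of which the lowest began at 0.49 for SPS19. Those 4 were taken because they passed as higher, which fixes intervals above 0. Within the same list, the intervals of MDH3 (from -0.03 to 0.29) and PXA1 (from -0.84 to -0.04) overlapped that of CAT2. CAT2 thus does not lie below every gene of the list. Intervals of the other listed genes are not given here. Of the 14 listed genes, 11 had libraries fully higher in the deletion strain and 1 fully lower, against 16.5% of all tested genes. The libraries of CAT2 overlapped. No test of the difference between genes was made, as the genes were chosen with their results known.

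**Figure D4:**
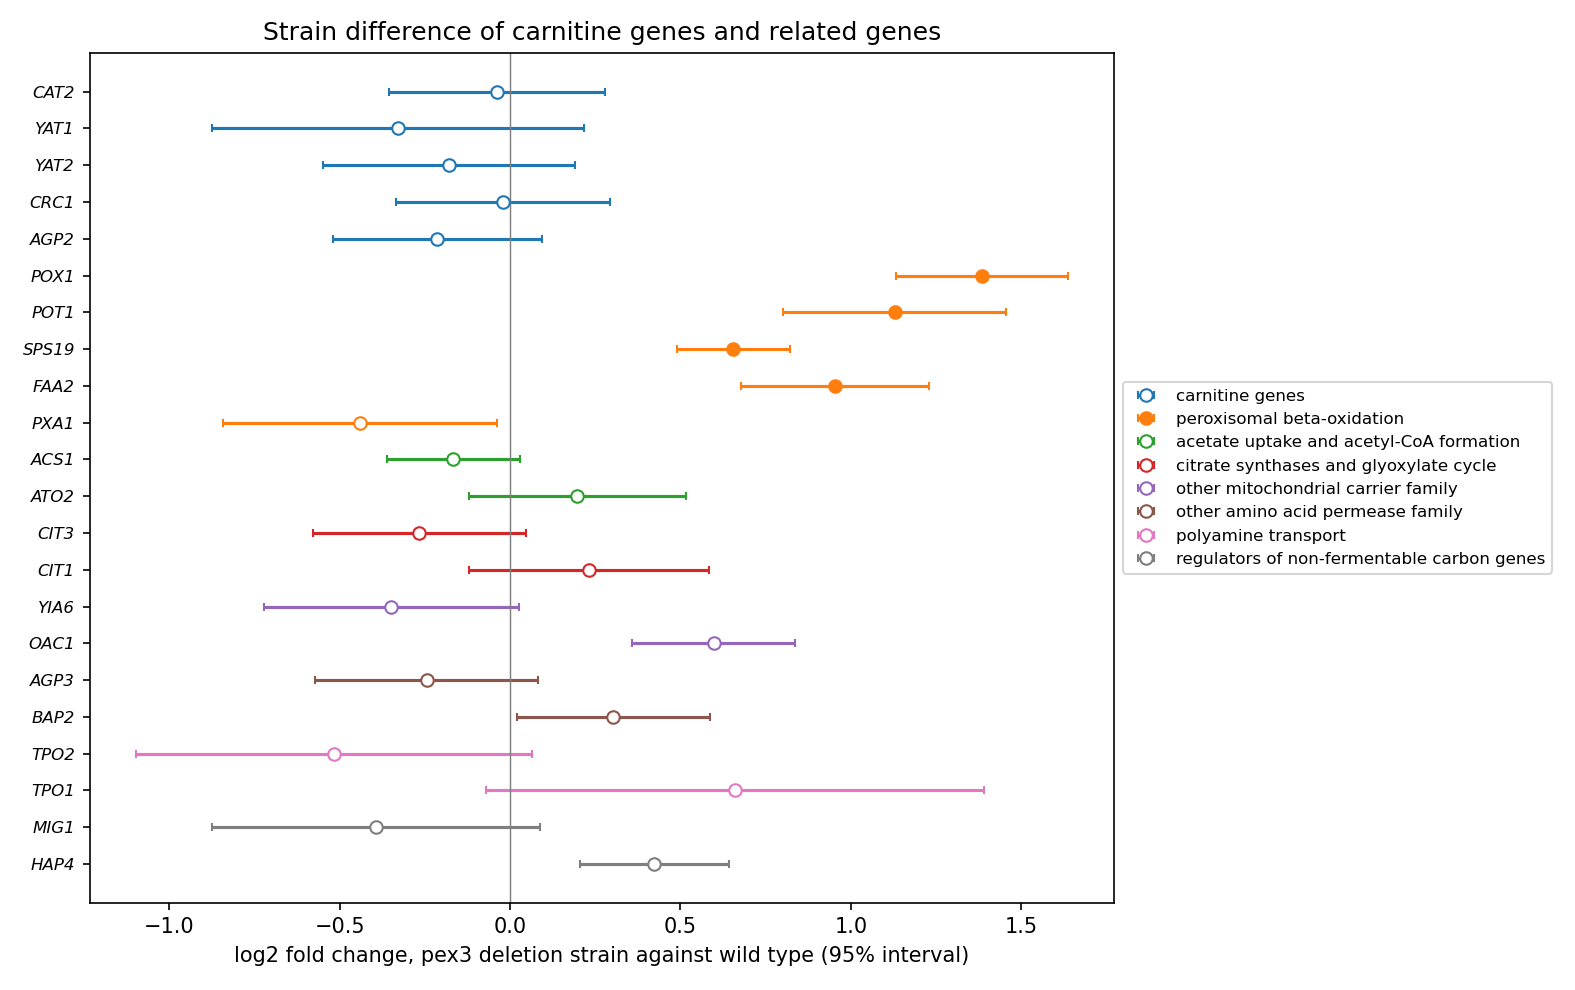
Log2 fold change, deletion strain against wild type, with 95% intervals (x axis) for the carnitine genes and for named genes of related lists (y axis), coloured by list, with filled points for an edgeR adjusted p under 0.05. The intervals of all 5 carnitine genes include 0, whereas those of POX1, POT1, SPS19 and FAA2, named because they passed, lie to the right of it.

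Listed genes that take up acetate, make acetyl-CoA from it or use acetyl-CoA for citrate and malate were also compared. Of 7 genes of acetate uptake and acetyl-CoA formation, 0 rose and 0 fell in edgeR, DESeq2 and limma voom. Over all tested genes, 0.178% passed in edgeR. In edgeR, 0 of the 7 had an unadjusted p under 0.05, against 9.08% of all tested genes. The median log2 fold change of the 7 was 0.01. ACS1, the acetyl-CoA synthetase gene used on acetate, averaged 2811 ± 110 CPM without the deletion and 2505 ± 208 CPM with it (SD, n = 3 each). Its libraries did not overlap, as for 16.5% of all tested genes. Its log2 fold change of -0.17 was the lowest of the list (edgeR adjusted p 0.574). The highest was that of the acetate permease family gene ATO2 at 0.20 (edgeR adjusted p 0.652). Of 9 genes for citrate synthases and the glyoxylate cycle, also 0 passed with any of these tools, with a median of 0.07. In edgeR 0 of the 9 had an unadjusted p under 0.05, against 9.08% of all tested genes. Libraries were fully higher in the deletion strain for 2 of the 9 and fully lower for 0, against 16.5% of all tested genes in either direction. Values ranged from -0.27 for CIT3, a mitochondrial citrate and methylcitrate synthase gene, to 0.23 for CIT1, the main mitochondrial citrate synthase gene (edgeR adjusted p 0.574 and 0.631).

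The families to which the carriers belong were also described. Among 29 tested genes of the mitochondrial carrier family other than CRC1, with AAC3 not analysed here, 0 passed in edgeR and limma voom. Their median was 0.02. Over all tested genes, 0.178% passed in edgeR. In edgeR, 5 of the 29 had an unadjusted p under 0.05, against 9.08% of all tested genes. OAC1, an oxaloacetate and isopropylmalate carrier gene, averaged 85.7 ± 11.3 CPM without the deletion and 129 ± 6.17 CPM with it (SD, n = 3 each). With a log2 fold change of 0.60 (edgeR adjusted p 0.118), it was the only gene of this list to pass in DESeq2 (adjusted p 0.00116). That tool called 26 genes higher over all genes. The lowest value was -0.35 for the mitochondrial NAD carrier gene YIA6 (edgeR adjusted p 0.548).

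Of 17 amino acid permease genes other than AGP2, 0 passed with the same 3 tools. The share of all tested genes that passed in edgeR was 0.178%. Against 9.08% of all tested genes, 3 of the 17 had an unadjusted edgeR p under 0.05. Their median was -0.01, with a range from -0.24 for AGP3 to 0.30 for the branched-chain amino acid permease gene BAP2 (edgeR adjusted p 0.607 and 0.524). The 12 polyamine transport genes, which share 3 genes with the permease list, had a median of -0.14. There, 0 passed with the 3 tools, and 2 had an unadjusted edgeR p under 0.05, against 9.08% of all tested genes. Values ran from -0.52 for TPO2 to 0.66 for TPO1, both polyamine exporter genes (edgeR adjusted p 0.566 and 0.561).

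The 18 regulators of genes for non-fermentable carbon included CAT8, SIP4, ADR1, OAF1, PIP2 and the subunits of the Snf1 kinase. Of these 18, 0 passed in edgeR and limma voom, and their median was -0.02. The share of all tested genes that passed in edgeR was 0.178%. In edgeR, 2 of the 18 had an unadjusted p under 0.05, against 9.08% of all tested genes. HAP4, the regulatory subunit gene of the Hap complex that activates respiratory genes, averaged 429 ± 49.5 CPM without the deletion and 576 ± 10.4 CPM with it (SD, n = 3 each). With a log2 fold change of 0.42 (edgeR adjusted p 0.281), it passed in DESeq2 (adjusted p 0.0108), where 26 genes were called higher over all genes. The lowest value was -0.39 for MIG1, the gene for the glucose repressor (edgeR adjusted p 0.587).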

How the data were processed

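Strand-specific poly(A) libraries were sequenced, per the labels' protocols. The authors deposited whole-number counts per gene, 1 column per library. The submitters' processing notes name fastp 0.20.0, STAR, RSEM 1.3.3 and build R64 without roles, and whether the counts are rounded estimates is not given in the sources used here. Columns were matched to samples by strain and number in the titles. Symbols and lengths came from RefSeq R64, which matched 5522 of 5631 rows.

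Counts were tested with edgeR 4.0.16 (R 4.3.3), quasi-likelihood, TMM factors, strain only. filterByExpr removed 3 rows, and Benjamini-Hochberg adjustment ran over 5628. The SE is the log2 fold change divided by the root of F, and 95% intervals use its t quantile. Log2 CPM carried a prior count of 2. Within-strain SDs of log2 CPM ran from 0.20 (AGP2) to 0.39 (YAT1) in the carnitine genes, where the median of tested genes was 0.13. How large a change could be detected at such spread was not tested. DESeq2 1.42.0, limma 3.58.1 voom, other factors and filters, a length correction (loess, span 0.3), the replicate block and leaving out libraries were alternatives. Depth was 6782522 to 9410398 counts per library.

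Members and lists were chosen with earlier results of these data known. Named genes were the members, passing genes and the extremes of each list, the 3 most similar patterns per member, and adjacent genes.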

Additional observations from a re-analysis of the deposited data

How the results depend on the processing

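The number of carnitine genes that passed was 0 of 5 under all 17 alternatives. Of 85 values of their log2 fold changes, 80 kept the sign of the reported value and 5 reversed. The reversed values were 0.10 (CAT2) and 0.072 (CRC1) without deletion replicate 1, 0.03 and 0.05 (CRC1) without wild-type replicates 2 and 3, and 0.11 (CAT2) without both replicate 1 libraries. Across the fits that left out 1 library, values ran from -0.18 to 0.10 for CAT2, -0.57 to -0.12 for YAT1, -0.31 to -0.05 for YAT2, -0.14 to 0.072 for CRC1 and -0.33 to -0.13 for AGP2.

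The counts over all genes moved more than those of the carnitine genes. Against 8 higher and 2 lower, DESeq2 called 26 and 32, the replicate block 1 and 0, the block with length correction 6 and 1, and leaving out both replicate 1 libraries, which was chosen after seeing the data, 34 and 20. Leaving out 1 library gave 3 to 12 higher and 0 to 5 lower. The beta-oxidation count of 4 was 8 with DESeq2, 0 with the block, 2 with the block and length correction, 8 without both replicate 1 libraries and 1 to 6 without 1 library. For each change the cause was not tested.

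Deviations of same-numbered cultures correlated at -0.16, 0.23 and -0.26, so the numbers were not taken as pairs in the reported fit. Deviations also followed gene length, to a differing degree per library, so these correlations do not exclude pairs. Labels and column names share the numbers across strains without saying what a number marks, so shared culture days were not tested. By number, the deletion library was below the wild-type library in 3 of 3 cases for YAT1, for YAT2 and for the summed acetyltransferase level, in 2 of 3 for CRC1 and AGP2, and in 1 of 3 for CAT2. With the replicate block, log2 fold changes were -0.05 for CAT2, -0.36 for YAT1, -0.18 for YAT2, -0.02 for CRC1 and -0.21 for AGP2, and 2 of the 5 genes, YAT1 and YAT2, had an unadjusted p under 0.05 (0.0111 and 0.0274 in edgeR, adjusted p 0.654 for both), against 7.13% of tested genes in that fit. With block and length correction together, the unadjusted edgeR p was 0.00424 for YAT1 and 0.0414 for YAT2 (adjusted p 0.379 and 0.534). The share of all tested genes under 0.05 in that fit was not counted. The lowest member count of 1668 gives a counting error of 2.45%, so depth limits these genes little.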
